A study of Mus musculus with 6 samples.

Results

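Genes of the ephrin, semaphorin, Slit and netrin guidance systems were followed through the cells of mouse brain vessels. The 10 genes, *Efnb2*, *Ephb4*, *Efna5*, *Efna1*, *Epha2*, *Unc5b*, *Sema3g*, *Plxnd1*, *Robo4* and *Slit2*, were matched by symbol among the 32287 features of the count tables. All 10 were found, and 71 further ligands and receptors of the same families were read beside them, giving a list of 81. The cells came from 6 male mice of 12 months, with no treatment named. The 3 WT mice were C57BL/6J, and the 3 ArcSwe mice carried TgApp ArcSwe (genotype AppArcSwe), a mutant human amyloid precursor protein transgene that gives amyloid in brain tissue and in vessel walls. The cell type that drives the transgene was not given in the sources used here. Fragments of microvessels were drawn from 1 cerebral hemisphere per mouse with beads against CD31, an endothelial surface protein, and made into 1 droplet library of 3′ transcript ends per mouse.

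Guidance proteins were first described in growing axons, and vessels use the same ligand and receptor pairs. Ephrins and Eph receptors both sit in the cell membrane, so they signal only where cells touch, and ephrin-B2 on arteries with EphB4 on veins is the classical pair that keeps the 2 sides of a vascular bed apart. Class 3 semaphorins and Slits are secreted and are read by plexin, neuropilin and Robo receptors. Unc5b is a netrin-family receptor of endothelial cells, and Robo4 is the endothelial member of the Robo family.

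Of 49059 barcodes, 44112 passed the limits on genes and mitochondrial share, 2379 to 13389 per mouse, with a median of 2922 to 5542 UMIs (counted molecules) per cell. In each library 46 to 143 barcodes also occurred in another library. Cells were clustered without the 81 guidance genes, and clusters were named from marker genes. This gave 4701 arterial-like, 13596 capillary-like and 2430 venous-like endothelial cells, 2725 smooth muscle-like cells and 344 pericyte-like cells. With 1654 cells between the zones, the barrier endothelial cells numbered 22381. Stress and immediate early genes (*Dnajb1*, *Jun*, *Egr3*, *Atf3*) were among the leading genes of capillary-like clusters 0 and 3, and inflammatory genes (*Icam1*, *Cxcl1*, *Cxcl2*) of venous-like cluster 6. UMIs were summed per mouse and class, and a level is given as CPM, the usual scaled share of all UMIs in that sum. Arterial-like sums held 2265869 to 6265354 UMIs and pericyte-like sums 55147 to 358623, from as few as 17 cells in 1 mouse, so pericyte levels are the least certain. At 3′ ends, CPM can be compared between classes for the same gene but not between genes.

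Classes were named from the marker lists below, so their sums describe the classes and do not test the names. The summed level of 14 arterial markers was 5306 to 8031 CPM in arterial-like cells, 663 to 775 CPM in capillary-like cells and 315 to 510 CPM in venous-like cells. The 10 venous markers summed to 3433 to 5681 CPM in venous-like cells and to at most 862 CPM in the other endothelial zones. The 7 capillary markers separated less. They summed to 4562 to 5931 CPM in capillary-like and 2833 to 4568 CPM in venous-like cells, which overlap, and to 1999 to 2997 CPM in arterial-like cells. The 7 smooth muscle markers summed to 38055 to 42886 CPM in smooth muscle-like cells, and the 8 pericyte markers to 29395 to 36831 CPM in pericyte-like cells. Since zones were named from markers of the same cells, a difference between zones describes genes that follow those markers. The mouse gene *App* was 1512 ± 78.2 CPM in endothelial cells of ArcSwe mice and 1540 ± 70.9 CPM in those of WT mice (SD, n = 3 mice each), so it does not check the genotype labels.

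Promoter sequence is shown for 4 members whose levels run in opposite directions along the vessel bed, so that the letters in front of the arterial genes *Efnb2*, *Sema3g* and *Unc5b* can be set beside those in front of the venous gene *Ephb4*. Each run is the 250 bases before the RefSeq transcript start in GRCm38.p6, 5′ to 3′ on the gene's strand. *Efnb2* lies at chr8:8661243-8661492 (minus strand), *Sema3g* at chr14:31217623-31217872 (plus strand), *Unc5b* at chr10:60831582-60831831 (minus strand) and *Ephb4* at chr5:137349859-137350108 (plus strand). Capitals mark the only match to the motifs searched.
Efnb2: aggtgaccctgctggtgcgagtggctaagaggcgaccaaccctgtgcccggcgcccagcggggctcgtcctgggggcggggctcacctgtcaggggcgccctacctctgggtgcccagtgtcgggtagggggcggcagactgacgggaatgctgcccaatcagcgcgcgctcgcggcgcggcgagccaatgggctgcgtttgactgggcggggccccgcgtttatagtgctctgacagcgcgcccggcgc
Sema3g: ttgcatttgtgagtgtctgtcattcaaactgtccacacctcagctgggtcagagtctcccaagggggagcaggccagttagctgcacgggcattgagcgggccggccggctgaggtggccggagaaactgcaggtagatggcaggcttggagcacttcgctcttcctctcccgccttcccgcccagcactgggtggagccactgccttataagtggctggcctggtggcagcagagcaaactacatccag
Unc5b: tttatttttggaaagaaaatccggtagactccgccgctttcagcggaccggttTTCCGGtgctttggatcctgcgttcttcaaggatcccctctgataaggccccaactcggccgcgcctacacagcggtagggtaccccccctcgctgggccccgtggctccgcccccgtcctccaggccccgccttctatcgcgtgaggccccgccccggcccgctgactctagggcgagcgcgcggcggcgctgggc
Ephb4: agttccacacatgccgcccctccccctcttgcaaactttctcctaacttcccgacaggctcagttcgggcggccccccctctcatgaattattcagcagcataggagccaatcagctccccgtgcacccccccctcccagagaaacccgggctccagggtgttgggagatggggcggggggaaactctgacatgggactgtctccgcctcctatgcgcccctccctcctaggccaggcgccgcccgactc

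A set of 3 short motifs was searched on both strands, TGGGAA (the core read by RBPJ, the DNA-binding partner of Notch), AGGTCA (a core read by nuclear receptors such as the venous factor Nr2f2) and CCGGAA (an ETS core). All 10 members matched the RefSeq promoter table, with 11 promoters because *Efna1* has a pair. TGGGAA was found in none of the 11, while 21.6% of all 32851 promoters held it. AGGTCA occurred in *Epha2*, *Plxnd1* and *Robo4* (14.0% of all promoters), and CCGGAA in *Unc5b*, on the minus strand 197 to 192 bases before the start (12.0% of all). The promoters of the arterial genes and of *Ephb4* were rich in GC, at 72.0% for *Efnb2*, 66.8% for *Unc5b*, 60.4% for *Sema3g* and 64.0% for *Ephb4*, against a median of 52.4% over all promoters. *Efnb2* and *Unc5b* each held 27 CpG dinucleotides in this window, *Ephb4* 12 and *Sema3g* 8. The promoter of *Robo4* stood apart, with 49.6% GC and 2 CpG.

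The first comparison asked how the members divide between arteries and veins. Arterial-like cells had higher levels of *Efnb2*, *Efna5*, *Efna1*, *Epha2*, *Sema3g*, *Plxnd1*, *Unc5b* and *Robo4*, and venous-like cells had higher levels of *Ephb4* and *Slit2*. All 10 members passed an adjusted p of 0.05 (edgeR quasi-likelihood test with the mouse as a block, Benjamini-Hochberg over 12041 genes), but with this power 43.6% of all genes passed, 22.3% higher and 21.3% lower in arterial-like cells. The sizes separate the members more than the calls do. The median absolute log2 difference was 1.84 over the members and 0.22 over all genes. The members were chosen with earlier results of these data known, so this gap describes them and does not test them. In 9 of 10 members every arterial value lay on 1 side of every venous value, as in 17.8% of all genes tested.

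**Figure D1:**
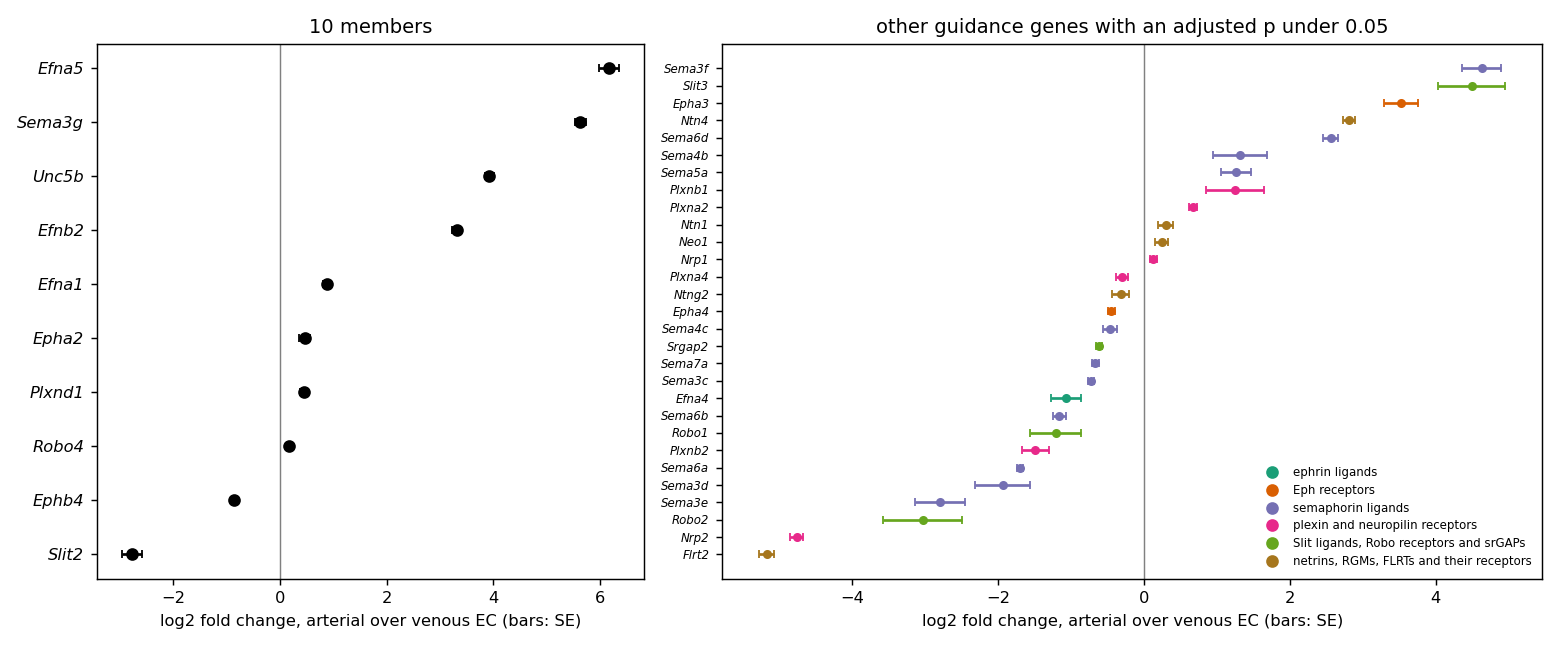
Log2 fold change of arterial-like over venous-like endothelial cells with its standard error (edgeR, sums of 6 mice), on the left for the 10 genes followed here and on the right, coloured by family, for the other guidance genes with an adjusted p under 0.05 (12 higher, 17 lower). *Efna5*, *Sema3g*, *Unc5b* and *Efnb2* lie far to the arterial side, at 3.32 to 6.18, and *Slit2* (-2.78) and *Ephb4* (-0.86) on the venous side.

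Among the ephrin ligands, *Efnb2* had a graded profile along the bed. Its level was lowest at 160.6 CPM, 171.4 CPM at the median and highest at 189.8 CPM over the 6 mice in arterial-like cells. It was 56.0, 63.6 and 67.0 CPM in capillary-like cells and 11.3, 16.1 and 20.4 CPM in venous-like cells (lowest, median, highest). The 3 zones did not overlap in any mouse. The log2 difference between arterial-like and venous-like cells was 3.32 ± 0.08 (SE, adjusted p = 3.29e-23), and the ratio of the levels within a mouse ran from 8.40 to 16.8. In cells thinned to 2000 UMIs (4465 of 4701 arterial-like and 2324 of 2430 venous-like cells were deep enough), a median of 27.3% of arterial-like and 2.56% of venous-like cells held an *Efnb2* UMI, and without thinning 55.7% and 9.12%.

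*Efna5*, a lipid-anchored ligand of EphA receptors, was near 0 in the other endothelial zones. It was 45.8, 99.3 and 152.9 CPM in arterial-like cells, against 0 to 1.49 CPM in capillary-like and 0.43 to 3.33 CPM in venous-like cells. It had the largest log2 difference of the 10, 6.18 ± 0.18 against venous-like cells (adjusted p = 1.35e-21) and 7.26 against capillary-like cells. It also varied between mice within arterial-like cells. The highest values, 152.9 CPM in ArcSwe mouse 3 and 146.3 CPM in WT mouse 3, came from the 2 libraries with the lowest median UMIs per cell (2922 and 3272), and the lowest, 45.8 CPM, from WT mouse 2.

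*Efna1*, the related ligand induced by inflammatory signals, differed less. It was 50.8, 73.9 and 81.6 CPM in arterial-like cells and 29.4, 34.7 and 47.7 CPM in venous-like cells, with a log2 difference of 0.89 ± 0.07 (adjusted p = 3.65e-11). The arterial value of WT mouse 2 stood below the other 5, which held 70.8 to 81.6 CPM.

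Of the Eph receptors, *Ephb4*, which binds ephrin-B2, ran against its ligand. It rose from 53.0 ± 5.24 CPM in arterial-like cells to 62.8 ± 5.30 CPM in capillary-like and 91.5 ± 11.6 CPM in venous-like cells (SD, n = 6 mice). The arterial values spanned 48.6 to 61.2 CPM and the venous values 79.4 to 112.9 CPM, with no overlap, and the log2 difference was -0.86 ± 0.06 (adjusted p = 5.81e-13). The receptor therefore moved much less than the ligand, and venous-like cells of every mouse exceeded its arterial-like cells by less than a factor of 2. Arterial-like cells retained *Ephb4* RNA in each mouse.

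*Epha2*, a receptor of the ephrin-A ligands, had a small arterial difference. Its levels were 24.7, 35.3 and 51.9 CPM in arterial-like and 19.9, 26.8 and 30.2 CPM in venous-like cells, which overlap. The log2 difference was 0.47 ± 0.10 (adjusted p = 0.00035), with 5 of 6 mice higher in arterial-like cells, but it was 0.19 (adjusted p = 0.189) where the endothelial clusters were built without centring each gene per mouse and 0.45 (adjusted p = 0.0814) without the mouse as a replicate block.

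*Sema3g*, a secreted class 3 semaphorin, fell along the bed as *Efnb2* did but further. It was 236.7, 272.9 and 342.9 CPM in arterial-like cells, 42.2, 48.3 and 58.5 CPM in capillary-like cells and 4.28, 5.35 and 6.81 CPM in venous-like cells. No zone overlapped another. Within a mouse the arterial level was 41.3 to 64.4 times the venous level, with a log2 difference of 5.64 ± 0.10 (adjusted p = 2.50e-26). At 2000 UMIs per cell a median of 38.5% of arterial-like and 0.77% of venous-like cells held a *Sema3g* UMI (69.5% and 2.67% without thinning).

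*Plxnd1*, a plexin receptor that endothelial cells use to read semaphorins, was nearer to flat. It was 99.8, 106.1 and 112.8 CPM in arterial-like cells and 61.8, 72.1 and 90.1 CPM in venous-like cells, with a log2 difference of 0.45 ± 0.07 (adjusted p = 2.02e-06). The groups did not overlap, and the highest venous value lay close below the lowest arterial one.

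*Unc5b* again divided artery from vein sharply. It was 117.2, 135.0 and 181.8 CPM in arterial-like cells, 56.4, 65.3 and 82.3 CPM in capillary-like cells and 6.76, 8.38 and 10.1 CPM in venous-like cells. The log2 difference between artery and vein was 3.93 ± 0.08 (adjusted p = 4.83e-25). Capillary-like cells held an intermediate level, so that the step from capillary to vein (log2 difference -2.85) was larger than that from artery to capillary (1.08).

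Of the Slit and Robo members, the secreted ligand *Slit2* was venous. It was 15.6, 19.0 and 39.3 CPM in venous-like cells against 1.97, 3.77 and 7.50 CPM in arterial-like and 2.85, 5.01 and 6.90 CPM in capillary-like cells. The log2 difference between artery and vein was -2.78 ± 0.19 (adjusted p = 2.97e-13). The highest venous values, 39.3 CPM in WT mouse 3 and 32.8 CPM in ArcSwe mouse 3, belonged to the same 2 libraries that were highest for *Efna5*.

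*Robo4*, by contrast, differed little between artery and vein, with its highest zone level in capillary-like cells. It was 111.4, 114.0 and 136.5 CPM in arterial-like, 131.4, 140.3 and 155.4 CPM in capillary-like and 95.1, 99.3 and 103.6 CPM in venous-like cells. The arterial and venous groups did not overlap, and the log2 difference was 0.17 ± 0.05 (adjusted p = 0.00235). It was 0.016 (adjusted p = 0.882) where endothelial cells with a UMI of the microglial genes *Cx3cr1* or *Aif1* were kept and 0.17 (adjusted p = 0.0966) without the mouse as a replicate block.

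Smooth muscle markers summed to 117 to 250 CPM in arterial-like and 35.3 to 115 CPM in venous-like cells, which is under 1% of their level in smooth muscle-like cells, and *Cx3cr1* and *Aif1* were at 0 in all zones because cells with them were left out. *Sema3g* and *Unc5b*, at 1.06 ± 1.03 and 1.76 ± 0.65 CPM in smooth muscle-like cells (SD, n = 6 mice), were far lower there than in arterial-like cells. Means of the other arterial-side members there were 55.2 (*Plxnd1*), 34.7 (*Efnb2*), 14.8 (*Efna5*), 9.30 (*Epha2*), 4.75 (*Efna1*) and 1.26 CPM (*Robo4*). *Slit3* and *Ntn4*, read below, were higher in smooth muscle-like than in endothelial cells. The part of smooth muscle RNA in the arterial-like values was not tested.

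Set against capillaries, 7 members were higher and 2 lower in arterial-like cells, where 44.2% of all genes passed (23.6% higher, 20.6% lower). The 2 lower genes were *Robo4* (log2 difference -0.24) and *Ephb4* (-0.23), and the last, *Slit2*, had -0.45 with an adjusted p of 0.0839. With clusters built without centring each gene per mouse, *Epha2* turned from 0.37 to -0.09 (adjusted p = 0.459) and *Ephb4* no longer passed (adjusted p = 0.0613), while *Slit2* passed at -0.76 (adjusted p = 0.0335). *Slit2* passed under 8 alternatives in all, among them leaving out WT mouse 3 (-0.54) or ArcSwe mouse 2 (-0.57). With *Cx3cr1* or *Aif1* cells kept, *Robo4* was -0.38 and *Ephb4* -0.34. In venous-like against capillary-like cells, where 33.9% of all genes passed (18.1% higher, 15.7% lower), *Slit2* (2.33) and *Ephb4* (0.63) were higher. *Sema3g* (-3.12), *Unc5b* (-2.85), *Efnb2* (-1.84) and *Robo4* (-0.41) were lower. The adjusted p of the other 4 lay between 0.0927 (*Efna5*) and 0.494 (*Epha2*). The 3 zone comparisons share the same sums, so they are not separate evidence.

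**Figure D2:**
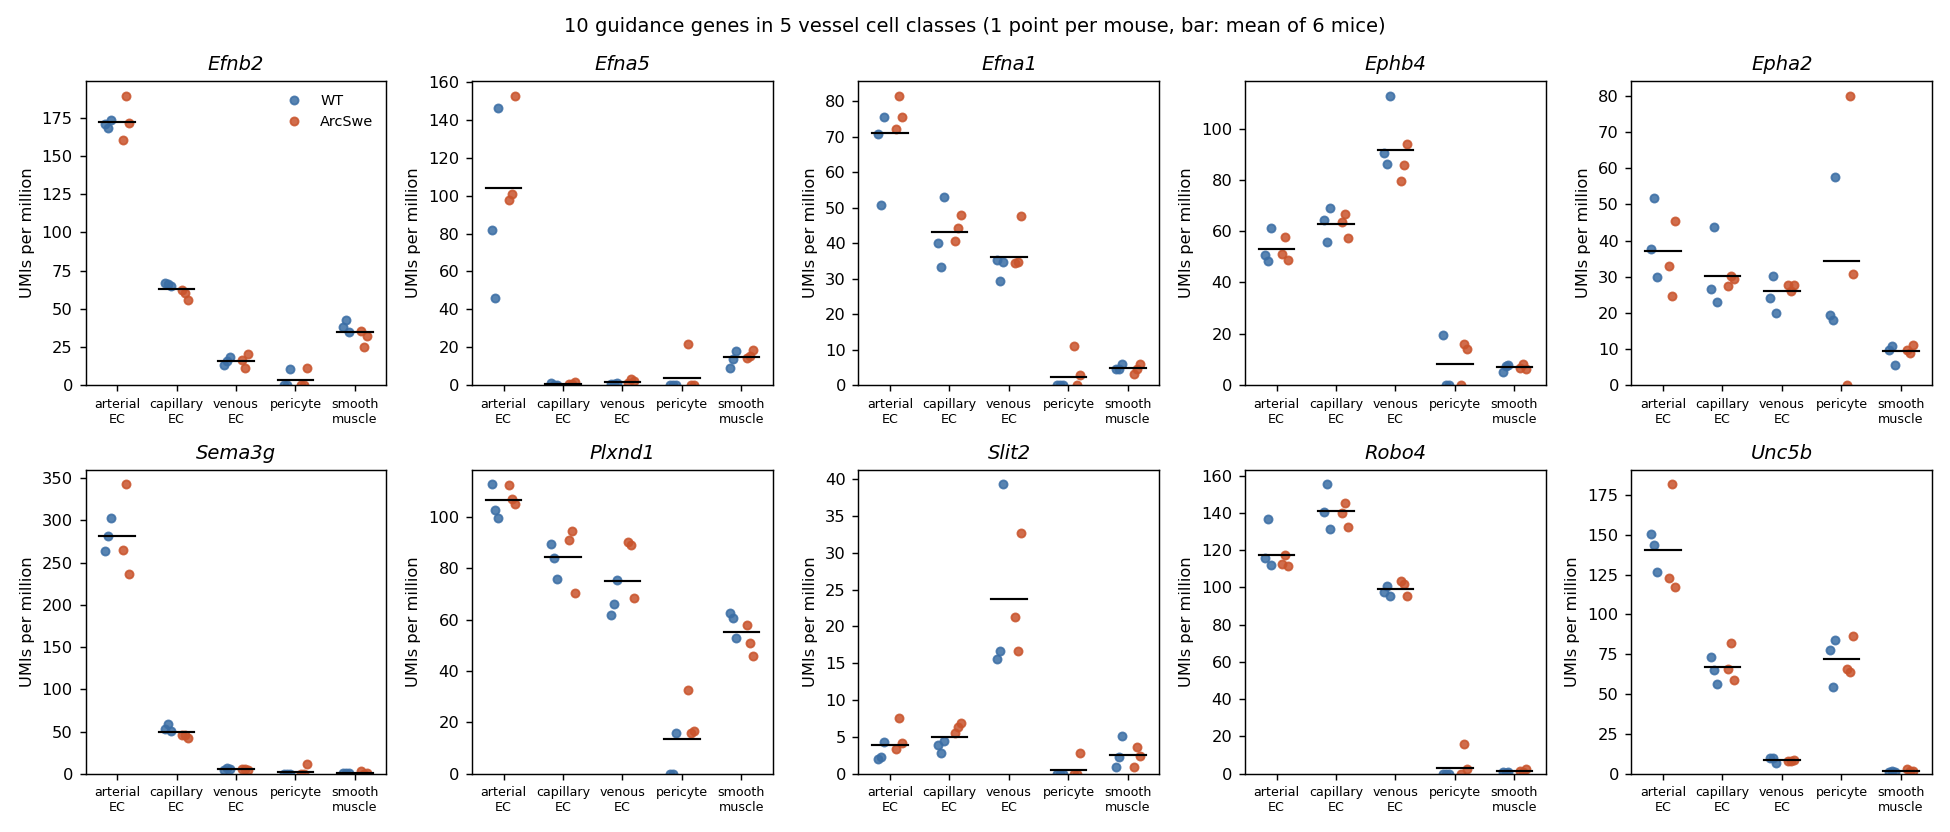
Level of each of the 10 genes (CPM) in arterial-, capillary- and venous-like endothelial cells, pericyte-like and smooth muscle-like cells, with a point for each mouse coloured by genotype and a bar at the mean of the 6 mice. *Efnb2*, *Sema3g* and *Unc5b* step down from artery to vein without overlap, *Ephb4* is highest in veins, and *Unc5b* is high again in pericyte-like cells at 54.4 to 86.4 CPM.

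Within arterial-like cells the members did not all peak in the same cells. A total of 4 clusters made up this zone, and they were set side by side as descriptions because they were cut from the same cells. Cluster 12, led by the wall matrix genes *Bgn*, *Fbln5*, *Mgp* and *Eln*, held 523 cells, 5.0% to 13.4% of the arterial-like cells of a mouse. *Efna5* was 496.4 ± 141.8 CPM there, 168.2 ± 53.2 CPM in cluster 11 (led by *Gkn3*), and 24.8 ± 12.9 and 26.2 ± 14.8 CPM in clusters 4 and 7 (SD, n = 6 mice). *Efna1* was also highest in cluster 12, at 171.6 ± 19.2 CPM against 27.7 ± 6.52 CPM in cluster 7.

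*Unc5b* had the opposite order. It was 22.3 ± 9.20 CPM in cluster 12, 115.4 ± 19.0 CPM in cluster 11 and 191.8 ± 30.8 CPM in cluster 4, the cluster marked by *Vegfc* and *Hey1*. In every mouse the *Unc5b* level of cluster 12 (13.2 to 38.2 CPM) lay below that of cluster 4 (164.6 to 244.8 CPM). *Efnb2* changed little over the same cells, from 132.6 ± 11.7 CPM in cluster 7 to 198.6 ± 28.9 CPM in cluster 12. *Sema3g* ranged from 223.6 ± 24.6 to 402.5 ± 45.9 CPM. *Robo4* also differed within this zone, at 65.0 ± 12.3 CPM in cluster 12 and 147.1 ± 6.17 CPM in cluster 4. Its values there did not overlap, at 52.7 to 81.9 CPM and 139.7 to 154.8 CPM over the mice.

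WT mouse 2, lowest for arterial *Efna5* and *Efna1*, had 5.0% of its arterial-like cells in cluster 12, and the other 5 mice had 10.8% to 13.4%. Within cluster 12 its *Efna5* level lay inside the range of the other mice (368 to 717 CPM), but it was also the lowest mouse within cluster 11 (90.5 CPM, others 151 to 244 CPM) and cluster 7 (5.18 CPM, others 13.1 to 45.6 CPM). In cluster 4 it had 10.2 CPM, next to WT mouse 1 (9.77 CPM), with the others at 21.1 to 36.7 CPM.

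On the venous side, cluster 9, led by *Ackr1*, *Lcn2* and *Vcam1*, held more of both venous members than cluster 6. *Ephb4* was 126.6 ± 21.0 CPM in cluster 9 and 71.3 ± 10.8 CPM in cluster 6, and *Slit2* was 35.1 ± 15.7 and 16.2 ± 5.74 CPM. *Ephb4* did not overlap between them, at 95.2 to 151.4 CPM and 59.4 to 83.1 CPM, while *Slit2* did.

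**Figure D3:**
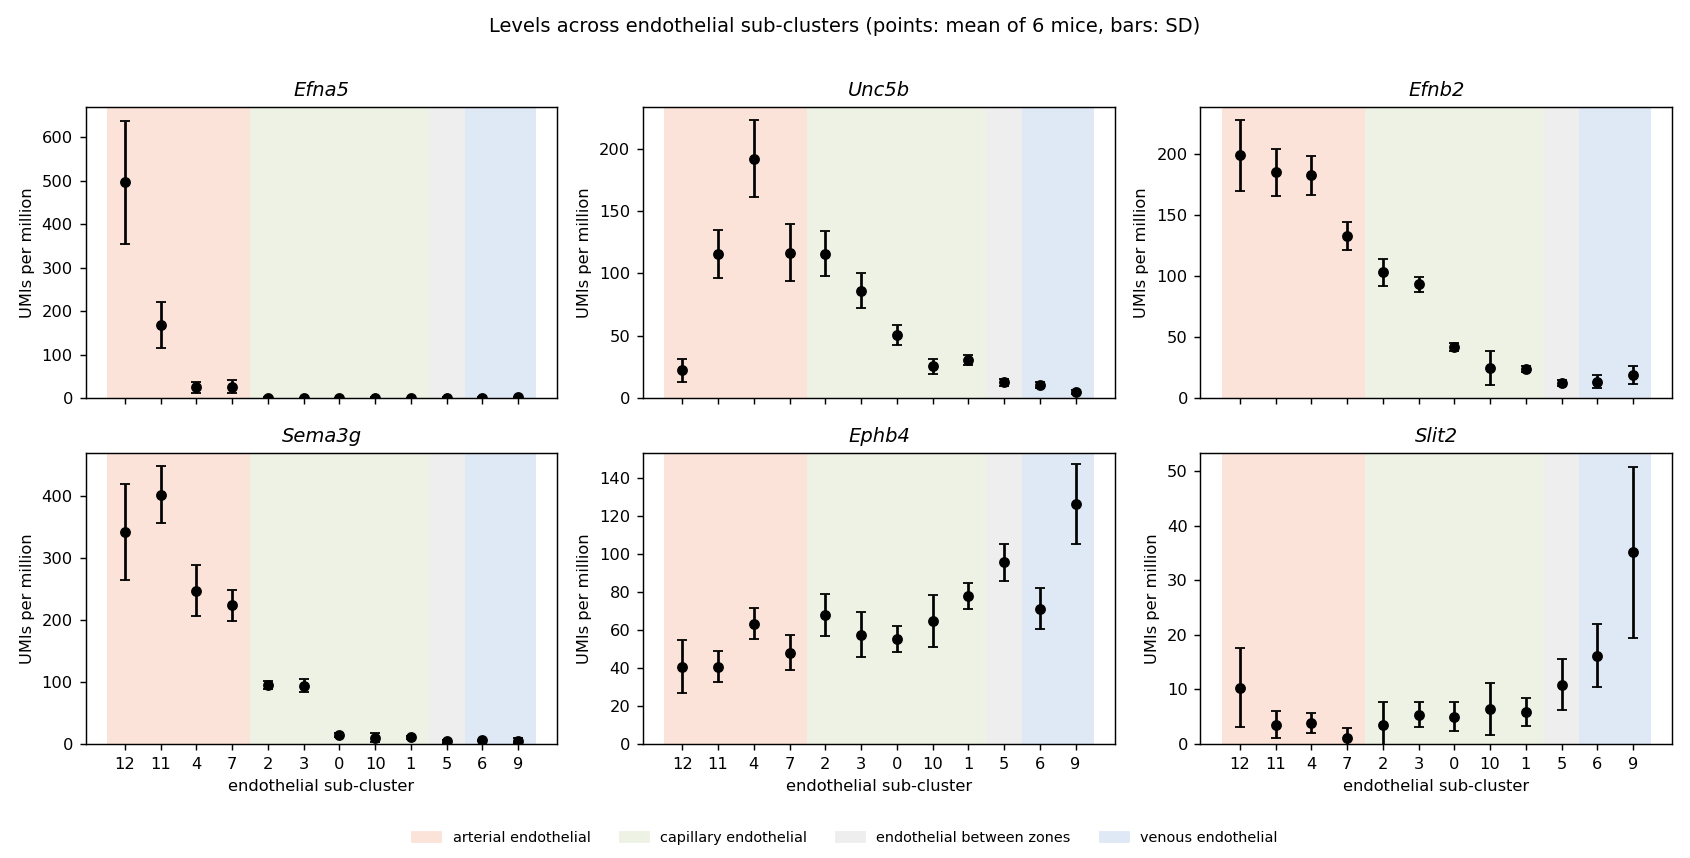
Level (CPM, mean and SD of 6 mice) of 6 of the genes in 12 endothelial clusters, numbered on the horizontal axis and shaded by zone. Capillary-like cluster 15, of 83 cells, is not shown. *Efna5* is concentrated in cluster 12 at 496.4 CPM, where *Unc5b* is 22.3 CPM, and *Ephb4* and *Slit2* are highest in cluster 9.

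The genes whose pattern over the 18 endothelial sums was most like that of *Efnb2* were *Sema3g* (Pearson r = 0.992), *Hey1* (0.990), *Cdh13* (0.990), *Cdkn1c* (0.988) and *Igfbp7* (0.988), out of 6649 genes. For *Sema3g* they were *Cdkn1c* (0.992), *Efnb2* (0.992), *Shtn1*, *Cdk19* and *Lmo7* (each 0.991). For *Ephb4* they were *Tcn2* (0.965), *Nexmif* (0.960), *Pdzd2* (0.943), *Ccser1* (0.942) and *Eps8* (0.941). The sums share mice and libraries, and the 3 zones dominate these values, so they are descriptions. *Hey1* was among the markers that named the arterial zone.

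The second comparison asked which members mural cells hold. Smooth muscle cells surround arteries and arterioles as a contractile layer, and pericytes lie on capillaries. The paper also describes smooth muscle cells of pial veins, and the smooth muscle-like class was not split into arterial and venous cells. Against all barrier endothelial cells, all 10 members were lower in smooth muscle-like cells, where 74.6% of all genes passed (36.7% higher, 37.9% lower). *Robo4* (-6.23), *Sema3g* (-6.20) and *Unc5b* (-5.13) were furthest down on the log2 scale, followed by *Efna1* (-3.14) and *Ephb4* (-3.12). *Plxnd1* (-0.46), *Efna5* (-0.79) and *Efnb2* (-0.99) were the least reduced. *Plxnd1* kept 45.9, 55.4 and 62.8 CPM, *Efnb2* 25.0, 35.0 and 42.9 CPM and *Efna5* 9.16, 14.6 and 18.7 CPM in smooth muscle-like cells. Those levels are 62.9%, 43.3% and 51.6% of the means over all barrier endothelial cells, most of them capillary-like. Against arterial-like cells the gaps were wider. The smooth muscle-like and arterial-like means were 55.2 and 106.7 CPM for *Plxnd1*, 34.7 and 172.6 CPM for *Efnb2* and 14.8 and 104.2 CPM for *Efna5*. Endothelial markers in smooth muscle-like cells were at 0.68% to 1.5% of their endothelial level.

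In pericyte-like cells 8 of 10 members were lower than in endothelial cells, where 44.0% of all genes passed (16.9% higher, 27.1% lower, and 38.5% of the calls higher with TMM scaling, 43.5% with RLE scaling and 48.9% with DESeq2). *Unc5b* was 54.4, 71.6 and 86.4 CPM in pericyte-like cells and 64.6, 69.2 and 87.9 CPM over all barrier endothelial cells, with a log2 difference of -0.11 ± 0.18 (adjusted p = 0.715). In each mouse it exceeded every venous-like and every smooth muscle-like value. The pericyte-like level rests on 68 UMIs, from 3 in WT mouse 2 to 31 in ArcSwe mouse 3. The 8 endothelial markers were at 0.65% to 4.5% of their endothelial level in pericyte-like cells, and *Cldn5* at 1.89%. At 2000 UMIs per cell, 224 of 344 pericyte-like cells were deep enough. A median of 14.4% of these held a *Unc5b* UMI, against 11.2% of capillary-like cells. The share was 0.12% in smooth muscle-like, 1.21% in microglia-like and 3.29% in B lymphocyte-like cells.

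*Epha2* was the other member without a called difference between pericytes and endothelium (-0.09 ± 0.31, adjusted p = 0.854), but it rests on 30 UMIs. Its pericyte level ran from 0 to 80.2 CPM over the mice, a spread that covers the other classes compared. *Efnb2* had 6 UMIs in pericyte-like cells, in 2 of 6 mice, *Sema3g* 4, *Efna5*, *Efna1* and *Robo4* 2 each and *Slit2* 1. These genes were not detectable above the spread of a few molecules at this depth, in which 3 counts over all pericyte-like cells are worth 3.48 CPM.

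Set directly against each other, smooth muscle-like cells had more *Efna5* (log2 difference 3.37 ± 0.81), *Efnb2* (2.81 ± 0.43) and *Plxnd1* (2.30 ± 0.31) than pericyte-like cells, and less *Unc5b* (-5.02 ± 0.31) and *Epha2* (-1.42 ± 0.38). The other 5 members did not pass. The pericyte side of *Efna5* was 2 UMIs of ArcSwe mouse 1 alone, so its size is uncertain. Over the alternatives the value ran from 2.45, without ArcSwe mouse 3, to 10.0. Without ArcSwe mouse 1 no *Efna5* UMI was left in pericyte-like cells. *Epha2* no longer passed without WT mouse 3 (adjusted p = 0.078), *Efna1* did pass without ArcSwe mouse 1 (adjusted p = 0.0451), and *Efna5* did not without the mouse as a replicate block (adjusted p = 0.0554). Over all genes 36.2% passed (22.5% higher, 13.7% lower in smooth muscle-like cells), so that 62.1% of the calls were higher with TMM scaling, 52.6% with RLE scaling and 47.7% with DESeq2. Among the 5 classes compared, *Efnb2* was thus highest in arterial- and capillary-like endothelium, followed by smooth muscle-like cells. *Unc5b* was highest in arterial-like, pericyte-like and capillary-like cells. In smooth muscle-like cells *Efnb2* (25.0 to 42.9 CPM) overlapped microglia-like (18.8 to 38.2 CPM) and B lymphocyte-like cells (11.1 to 75.5 CPM). *Efna5* there (9.16 to 18.7 CPM) overlapped microglia-like cells (1.51 to 21.7 CPM). The part of RNA from other cells in these values was not tested. The venous marker *Nr2f2* does not set veins apart from mural cells, since it was also 616 CPM in pericyte-like and 610 CPM in smooth muscle-like cells.

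The other guidance genes were read for context, from a list of 71 of which 41 were tested between arterial-like and venous-like cells. Of these, 12 were higher in arterial-like cells, 17 were lower and 12 did not pass (70.7% called against 43.6% of all genes). Their median log2 difference was -0.05 and their median absolute difference 0.68, against 0.01 and 0.22 over all genes. This list too was chosen with earlier results of these data known. By family, and with the members counted, 12 of 14 semaphorins passed, 5 higher and 7 lower. Of 8 plexins and neuropilins 4 were higher and 3 lower. Of 7 ephrins 3 were higher and 1 lower, of 6 Eph receptors 2 and 2, of 8 Slit, Robo and srGAP genes 2 and 4, and of 8 netrin, RGM, FLRT and receptor genes 4 and 2.

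The venous side was led by *Flrt2*, a membrane ligand of Unc5 receptors, at 244.5 ± 60.0 CPM in venous-like and 6.63 ± 3.24 CPM in arterial-like cells (log2 difference -5.17). *Nrp2*, the neuropilin of venous and lymphatic endothelium, followed at 278.9 ± 56.4 and 10.5 ± 2.15 CPM (-4.76). The transmembrane semaphorin *Sema6a* (-1.70) and the plexin *Plxnb2* (-1.49) were also venous. The arterial side held the secreted semaphorin *Sema3f* (24.8 ± 6.72 against 0.83 ± 0.52 CPM, 4.63), *Slit3* (4.49), *Epha3* (3.52), the netrin *Ntn4* (115.6 ± 15.2 against 15.9 ± 3.47 CPM, 2.81), *Sema6d* (2.56) and *Sema5a* (1.26). So between arterial-like and venous-like cells *Flrt2* ran against *Unc5b*, and *Slit3* against *Slit2*. *Flrt2* was not confined to venous-like cells. It was highest between the zones, at 402.2 ± 72.8 CPM in cluster 5, against 252.3 ± 76.3 and 238.9 ± 50.1 CPM in venous-like clusters 6 and 9. Over the capillary-like clusters it ran from 19.6 ± 22.4 CPM (cluster 15) to 161.5 ± 44.4 CPM (cluster 10). *Unc5b* was 57.3 ± 41.0 and 25.6 ± 5.90 CPM in those clusters (SD, n = 6 mice). Cluster 15 held only 83 cells, with *Flrt2* at 0 to 55.3 CPM over the mice. The relation of the genes over clusters was not tested.

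In mural cells the wider list held genes that were near 0 in endothelium. In smooth muscle-like against endothelial cells 14 of 39 tested were higher, near the 36.7% of all genes, and 21 were lower, beside 37.9% of all genes. *Unc5c*, a paralogue of Unc5b, was 56.1 ± 18.4 CPM in smooth muscle-like and 0.16 ± 0.07 CPM in endothelial cells (log2 difference 8.50), and *Slit3* was 178.5 ± 58.3 against 4.20 ± 0.79 CPM (5.60). *Rgma*, a membrane ligand of neogenin (7.94), *Flrt1* (5.56) and *Plxnb1* (4.98) were also higher. *Sema3c* (-6.87), *Flrt2* (-6.85), *Sema6a* (-6.69), *Srgap1* (-5.94) and *Sema7a* (-5.74) were lower.

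In pericyte-like against endothelial cells 11 of 39 were higher and 16 lower, beside 16.9% and 27.1% of all genes. *Rgma* had 138.1 ± 32.0 CPM in pericyte-like and 0.20 ± 0.19 CPM in endothelial cells (9.13), with *Sema6c* (5.67) and *Plxnb1* (4.70) also higher. *Sema3c*, at 723.0 ± 60.1 CPM in endothelium, was 12.1 ± 10.6 CPM in pericyte-like cells (-5.72), and *Sema6a* (-5.61), *Sema7a* (-5.44), *Flrt2* (-5.40), *Epha4* (-5.10) and *Sema6b* (-4.61) were lower too. *Sema3f* had no UMI in pericyte-like cells and was at least 2.00-fold lower than in endothelium when 3 counts over the group are taken as the floor.

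Between the 2 mural types 9 of 39 were higher in smooth muscle-like cells, near the 22.5% of all genes, and 9 were lower, beside 13.7% of all genes. *Unc5c* had no UMI in pericyte-like cells and was at least 16.9-fold higher in smooth muscle-like cells, *Sema3f* at least 4.39-fold and *Sema3b* at least 1.24-fold against the same floor. *Ntn4*, a netrin of basement membranes, was 912.5 ± 136.4 CPM in smooth muscle-like and 108.7 ± 28.4 CPM in pericyte-like cells (3.52). *Flrt1* (4.70) and the netrin receptor *Neo1* (2.21) were higher as well. Pericyte-like cells held more *Sema6d* (339.5 ± 68.5 against 7.04 ± 2.22 CPM, -5.06), *Ntn1* (307.1 ± 82.7 against 22.7 ± 3.54 CPM, -3.09), *Sema6c* (-1.36) and *Rgma* (-1.19). The netrins thus divided, with *Ntn4* higher in smooth muscle-like cells and *Ntn1* in pericyte-like cells.

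The third comparison asked whether the genotype moves these genes. None of the members passed in any class. By edgeR's quasi-likelihood test 0 genes of any kind passed between ArcSwe and WT mice in all barrier endothelial cells (0% of 13390 tested, 610 at an unadjusted p under 0.05), and 0% in arterial-like (473 of 11247), capillary-like (618 of 12235), venous-like (365 of 10087), pericyte-like (52 of 1950) and smooth muscle-like cells (432 of 10046). DESeq2 called 8, 14, 17, 0, 0 and 0 genes in the same order. With the replicate number as a block, 1 gene passed in venous-like cells and others in arterial-like and smooth muscle-like cells, none a member. In all endothelial cells the adjusted p of each member was at least 0.99. No member reached the count filter in pericyte-like cells, 9 were tested in capillary-like and venous-like cells (not *Efna5*) and 6 in smooth muscle-like cells.

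In arterial-like cells the genotypes overlapped for each of the 10 members. *Efnb2* was 160.6, 189.8 and 171.6 CPM in ArcSwe mice 1 to 3 and 171.2, 168.3 and 173.9 CPM in WT mice 1 to 3, with a log2 difference of 0.05 ± 0.10 (SE). *Sema3g* was 264.7, 342.9 and 236.7 CPM in ArcSwe mice and 263.9, 281.2 and 303.2 CPM in WT mice (0.02 ± 0.14). *Unc5b* was 122.6, 181.8 and 117.2 CPM in ArcSwe mice and 150.7, 143.4 and 126.6 CPM in WT mice (0.02 ± 0.17). The WT values of all 3 genes fell inside the ArcSwe range. The summed arterial markers did not overlap in these cells, at 7579 to 8031 CPM in ArcSwe and 5306 to 7500 CPM in WT mice. *Efna5*, at 97.5, 101.1 and 152.9 CPM in ArcSwe mice and 81.8, 45.8 and 146.3 CPM in WT mice, differed by 0.41 ± 0.33, so a change of the order of its spread between mice could not be detected. In venous-like cells *Ephb4* was 79.4, 85.9 and 94.1 CPM in ArcSwe mice and 90.6, 86.0 and 112.9 CPM in WT mice (-0.13 ± 0.12).

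The 2 smallest unadjusted p-values of any member came from capillary-like cells, for *Slit2* and *Sema3g*. *Slit2* was 5.56, 6.39 and 6.90 CPM in ArcSwe mice and 3.97, 2.85 and 4.45 CPM in WT mice, a log2 difference of 0.78 ± 0.22 with an unadjusted p of 0.00702 and an adjusted p of 0.835 by edgeR. *Sema3g* was 45.3, 45.6 and 42.2 CPM in ArcSwe mice and 53.3, 58.5 and 51.1 CPM in WT mice (-0.26 ± 0.11, adjusted p = 0.924), and *Efnb2* was 62.6, 60.6 and 56.0 CPM against 67.0, 66.1 and 64.7 CPM (-0.11 ± 0.09, adjusted p = 0.941). In each of these 3 genes the genotypes did not overlap, as in 11.9% of all genes tested there, and none survived correction. Venous markers in the same capillary-like sums were 518 to 716 CPM in ArcSwe and 404 to 475 CPM in WT mice, and arterial markers 663 to 688 CPM and 685 to 775 CPM. Their part in these values was not tested.

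**Figure D4:**
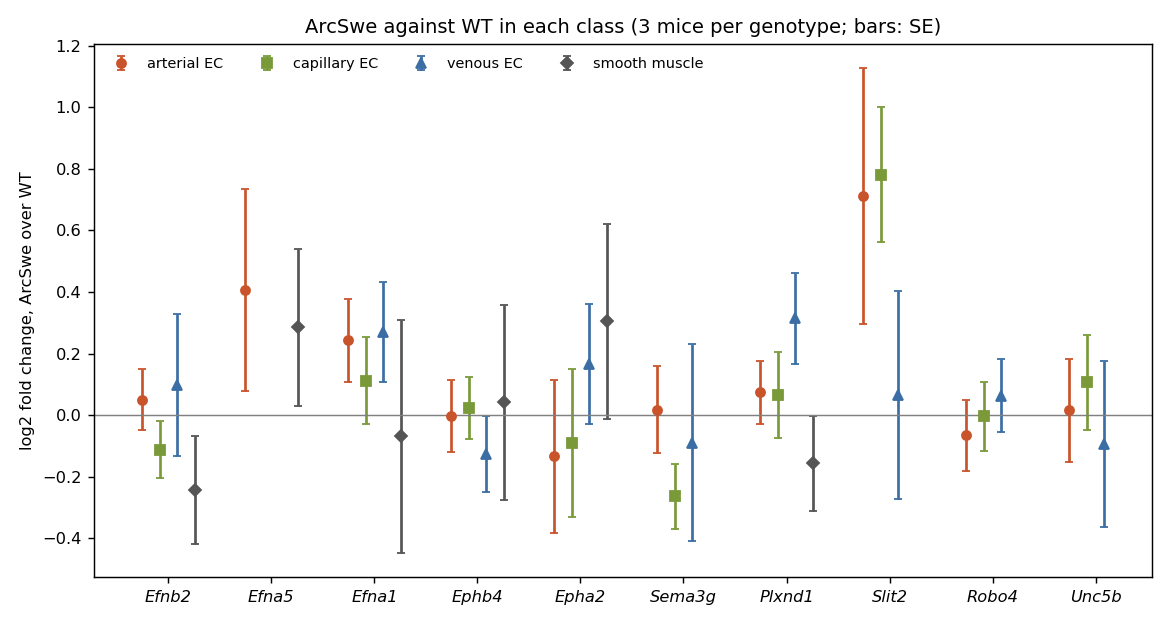
Log2 fold change of ArcSwe over WT with its standard error (edgeR, 3 mice per genotype) for each of the 10 genes, with a symbol for each of arterial-, capillary- and venous-like endothelial and smooth muscle-like cells where the gene was tested. Most values lie near 0, and *Slit2* in arterial-like (0.71) and capillary-like cells (0.78) is furthest from it.

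Whether the arterial and venous contrast itself differs between genotypes was tested as an interaction over 12 sums. It passed for 4 of 11614 genes (0.0344%), with 599 at an unadjusted p under 0.05 and 1 called by DESeq2. Named here after their values were seen, these were *Vcam1* (1.40), *Icam1* (0.93), *Csf1* (1.02) and *Ankrd37* (-0.81), of which *Vcam1* and *Icam1* were among the venous markers. The count ran from 1 to 6 when a mouse was left out. None of the members passed, and their smallest adjusted p was 0.963 (*Plxnd1*, log2 difference of the contrasts -0.21 ± 0.13). *Efnb2* had -0.09 ± 0.20, *Sema3g* 0.05 ± 0.28, *Unc5b* 0.03 ± 0.24 and *Ephb4* 0.12 ± 0.12 by the same measure.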

How the data were processed

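Per the labels and the study's methods, vessel fragments of 6 mice gave 1 droplet library each, and the authors deposited a matrix of UMI counts per gene and cell (Cell Ranger 7.0.0, mm10). These raw counts were used. Cells with 500 to 4500 genes and under 10% mitochondrial UMIs were kept. Ribosomal, mitochondrial, pseudogene and Rik genes (2849) were removed, leaving 29438. Endothelial cells with a *Cx3cr1* or *Aif1* UMI were left out (5351 of 29406). Cells were clustered without the 81 guidance genes (scanpy 1.11.5, leidenalg 0.10.2, 2000 variable genes, 30 components, resolution 1.0), each gene centred per mouse before endothelial and mural sub-clustering, and named from marker lists, so names may differ from the study's. Scrublet marked 114 cells (0.258%), too few to be used, so no doublets were removed. No other column of per-sample values was present.

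Counts were summed per mouse and class and tested with edgeR 4.0.16 (R 4.3.3; TMM scaling, filterByExpr, quasi-likelihood test, Benjamini-Hochberg adjustment over all genes tested). Zone and mural fits had the mouse as a block, and the genotype fits had genotype alone. SE is the absolute log2 difference over the square root of F. DESeq2 1.42.0 was an alternative. The test was tested on simulated data. Depth limits pericyte-like cells most. The 10 genes were named throughout, other guidance genes where they passed without overlap, at most 10 by size in a comparison. The members and lists were chosen with earlier results of these data known. *Nnt* was not analysed here.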

Additional observations from a re-analysis of the deposited data

Results flagged for a closer look

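Among 50 sets of 6 mice (10 genes in 5 classes) 10 had a mouse far from the other 5 by Dixon's gap. Chance gives about 1 in 20 among sets of measured values, a rate that does not apply where most mice are at 0. In arterial-like cells WT mouse 2 was low for *Efna1* (50.8 CPM, others 70.8 to 81.6) and high for *Robo4* (137 CPM, others 111 to 117). In capillary-like cells the same mouse was high for *Epha2* (43.8 CPM, others 23.0 to 30.2). ArcSwe mouse 3 was high for *Efna1* in venous-like cells (47.7 CPM, others 29.4 to 35.4), and ArcSwe mouse 1 for *Unc5b* in smooth muscle-like cells (2.98 CPM from 7 UMIs, others 1.09 to 1.79). The other 5 lay in pericyte-like cells and rest on 1 to 4 UMIs each. They were *Efna5* (21.8 CPM) and *Efna1* (10.9 CPM) in ArcSwe mouse 1, *Robo4* (16.0 CPM) in ArcSwe mouse 2, and *Sema3g* (11.2 CPM) and *Slit2* (2.79 CPM) in ArcSwe mouse 3.

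Cells outside the comparisons also carried members. In 842 fenestrated-like endothelial cells (63 to 222 per mouse), marked by *Plvap*, *Efnb2* was 227 CPM (200 to 292 over the mice), *Efna1* 127 CPM (109 to 144), *Plxnd1* 251 CPM (186 to 292) and *Robo4* 250 CPM (200 to 332). For these 4 genes every mouse was above every mouse of the 5 classes compared. Single clusters within those classes did reach these levels. In arterial-like cluster 12 *Efna1* was 146 to 196 CPM and *Efnb2* 165 to 240 CPM over the mice. In capillary-like cluster 15 *Robo4* was 198 to 351 CPM and *Plxnd1* 111 to 251 CPM. In microglia-like cells *Epha2* was 51.1 CPM (36.1 to 81.7 over the mice), above its mean in each of those 5 classes, though the ranges overlap.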

How the results depend on the processing

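The artery and vein calls of the members kept their direction under every alternative run (edgeR, with RLE scaling, DESeq2, no filter, stricter cells, other clustering, each mouse left out), and 8 of 10 kept their call in each. The exceptions were *Epha2* and *Robo4*, whose values stand beside their results. Among member values called in the zone, mural and genotype comparisons, only *Epha2* in arterial-like against capillary-like cells changed sign, to -0.0904 without centring per mouse. Values that had not passed also changed sign, such as *Ephb4* (-0.37 to 0.75), *Robo4* (-0.72 to 0.68) and *Sema3g* (-2.25 to 6.11) in smooth muscle-like against pericyte-like cells. *Epha2* in venous-like against capillary-like cells passed under 3 alternatives, *Efna5* under 3 and *Efna1* under 1. RLE scaling moved the median log2 difference of smooth muscle-like against pericyte-like cells from 0.12 to -0.01 (DESeq2 -0.06), and DESeq2 that of pericyte-like against endothelial cells from -0.18 to -0.05, and the members' values there are relative to the TMM median. Without the filter the latter was -0.56, and that of smooth muscle-like against endothelial cells -0.31 in place of -0.02.

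Without the mouse as a replicate block, 2972 genes passed between arterial-like and capillary-like cells (5320 with it) and 2166 between venous-like and capillary-like cells (4079 with it). Here the block is the same mouse. Between genotypes the labels do not say what a shared replicate number marks. Deviations of same-numbered mice correlated at 0.0795, 0.152 and 0.355 in endothelial cells, where WT mouse 1 was closest to ArcSwe mouse 2 (0.266), and at 0.147, 0.137 and 0.306 in venous-like cells, where each mouse was closest to its own number. With a replicate block of numbers, 1 gene passed in arterial-like, 1 in venous-like and 4 in smooth muscle-like cells, none a member.

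Between ArcSwe and WT mice, where no gene passed, DESeq2 called 8 genes in all endothelial, 14 in arterial-like and 17 in capillary-like cells. With no filter on low counts 104 passed in arterial-like, 9 in capillary-like, 74 in venous-like, 3 in pericyte-like and 63 in smooth muscle-like cells. In arterial-like cells 1 gene passed at clustering resolution 2, 1 with guidance genes kept in the clustering, 1 without centring and 1 with *Cx3cr1* or *Aif1* cells kept. Leaving out a mouse gave 0 to 1 genes in endothelial and capillary-like cells (1 without ArcSwe mouse 2) and in pericyte-like cells (1 without WT mouse 3). The interaction, with 4 genes, gave 1 by DESeq2, 33 with no filter, 0 without centring, 2 with *Cx3cr1* or *Aif1* cells kept and 1 to 6 when a mouse was left out. The cause of these changes was not tested. The alternative without Scrublet's doublets was not run. Leaving out the 6% of cells with the highest doublet scores and keeping a cluster low in ribosomal UMIs were added after seeing the data. Depth limits statements on pericyte-like cells, where most members had under 15 UMIs.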

Other observations

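Fenestrated-like endothelial cells, the leaky type found in the choroid plexus and similar sites, did not carry the arterial set as a whole. Beside *Efnb2*, they held *Ephb4* at 127 ± 28.0 CPM and *Epha2* at 70.1 ± 16.8 CPM (SD, n = 6 mice), so ligand and receptor were both measured in the same class. *Sema3g* was 42.5 ± 16.3 CPM and *Unc5b* 38.7 ± 13.9 CPM, below the arterial-like values of every mouse. *Efna5* rested on 5 UMIs and *Slit2* on 6, each at 0 in 4 of 6 mice. The class was named from markers in the same cells, its cells were not left out for a *Cx3cr1* or *Aif1* UMI, and these values were not tested.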
